A study of Mus musculus with 8 samples.

Results

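The 9 genes described here are Fos, Fosb, Jun, Junb, Egr1, Atf3, Nr4a1, Nr4a2 and Nr4a3, taken by name from the 24848 gene rows measured in ischemic mouse muscle. All 9 passed the filter on low counts and were among the 13569 genes tested. Immediate early genes are transcribed within minutes of a stimulus, without new protein synthesis, when kinases activate factors such as CREB, SRF and the ternary complex factors already bound at their promoters. Their products are themselves transcription factors: FOS and JUN proteins pair into the AP-1 dimer, EGR1 is a zinc finger factor, ATF3 is a stress-induced leucine zipper protein, and the NR4A proteins are orphan nuclear receptors that are active without a ligand. In skeletal muscle these genes respond to contraction, injury and beta-adrenergic signals, and Nr4a1 and Nr4a3 are known regulators of glucose and oxidative metabolism.

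RNA sequencing was done on the tibialis anterior, a muscle of the lower leg, of male Leprdb/db mice, an obese and diabetic strain with a defective leptin receptor. Every animal had hind limb ischemia surgery and muscle was collected at day 28. From day -3 the mice had free access for 31 days either to a control diet (placebo, 4 libraries) or to a diet with 75 ppm praliciguat (4 libraries), meant to reach the peak plasma concentration of 10 mg/kg/day given by mouth. Praliciguat is a stimulator of soluble guanylate cyclase, which makes cGMP when nitric oxide binds it. The mutation, the sex and the surgery were shared by both groups, so the libraries hold no lean, unoperated or early time point. Sample titles carry numbers in a lower range (3892, 3893, 3896 and 3897) and an upper range (3924 to 3927), each with 2 placebo and 2 praliciguat libraries. Placebo and praliciguat replicates 1 and 2 have lower numbers and replicates 3 and 4 upper ones. The labels leave the meaning of these numbers unstated, and they do not state that libraries come from different mice. The p-values therefore reflect library-to-library spread, which may be technical.

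Total expected counts ran from 21099764 to 31896205 per library. The muscle label was borne out by the fibre markers: 12 genes such as Ckm and Acta1 summed to between 172808 and 232747 CPM (counts relative to the library size, scaled by the TMM method) in every library, while 9 T and B cell markers summed to 0.622 to 7.40 CPM. One library stood apart. In praliciguat replicate 3, 11 macrophage markers summed to 844 CPM against 81.6 to 285 CPM elsewhere, and 10 fibroblast markers to 6177 CPM against 826 to 2931 CPM. In the same library 6 of the 9 members had their lowest CPM of the 8 libraries, against 16.5% of all tested genes. The part of these cells in the members' values was not tested. In whole muscle, fewer cells of a type and less RNA per cell cannot be told apart.

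Levels were compared between genes in TPM, a length-corrected share of all transcripts. Nr4a1 was far the most abundant member, at 380 ± 74.2 TPM (SD, n = 8), followed by Jun at 62.8 ± 7.72 TPM. Nr4a1 lay above Jun in 8 of 8 libraries and their ranges did not overlap. Next came Junb (27.1 ± 14.0 TPM), Nr4a3 (25.3 ± 27.0 TPM), Egr1 (17.0 ± 4.88 TPM) and Atf3 (16.5 ± 6.39 TPM). Fos (11.8 ± 2.99 TPM), Nr4a2 (5.47 ± 3.25 TPM) and Fosb (3.28 ± 1.74 TPM) were lowest. From Jun downward every pair of neighbours in this order had overlapping ranges. Within libraries, Jun lay above Junb and Fos above Nr4a2 in 7 of 8, and Atf3 above Fos and Nr4a2 above Fosb in 6 of 8. Junb lay above Nr4a3 in 5 of 8, Nr4a3 above Egr1 in 3 of 8 and Egr1 above Atf3 in 2 of 8. Some genes farther apart in the order had ranges that did not overlap. The lowest Jun (54.6 TPM) lay above the highest Egr1 (27.4 TPM), and the lowest Fos (7.30 TPM) above the highest Fosb (5.91 TPM).

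No member passed the test between praliciguat and placebo. With edgeR's quasi-likelihood test and Benjamini-Hochberg adjustment over all tested genes, 0 of 9 members and 0% of all genes were called. At an unadjusted p under 0.05 edgeR had 1 member, Nr4a3, and DESeq2 also had 1, beside 5.73% of all tested genes by edgeR. The fold change (praliciguat over placebo) was below 0 on the log2 scale for 6 members and above 0 for 3, with a median of -0.28, beside a median of 0.02 over all tested genes. The groups overlapped in CPM for 9 of 9 members, where 3.86% of tested genes had no overlap. Leaving out praliciguat replicate 3 left 0 members called.

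**Figure D1:**
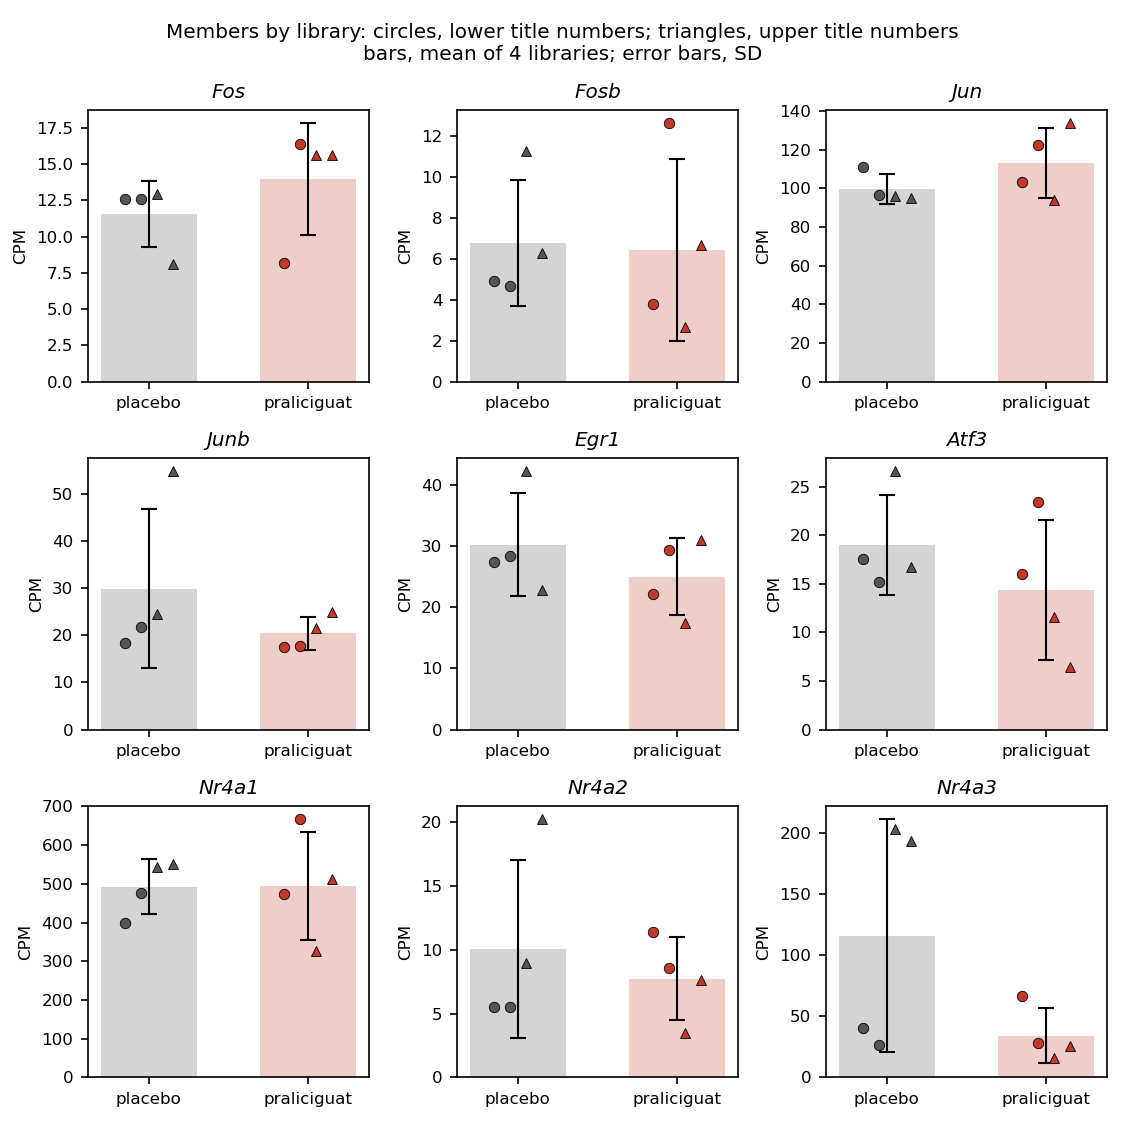
CPM of each member (vertical axis, linear, from 0) in the 4 placebo and 4 praliciguat libraries; bars are group means, error bars SD, circles are libraries with lower title numbers and triangles those with upper ones. Placebo and praliciguat points overlap for all 9 genes, and the 2 placebo triangles of Nr4a3, at 203 and 193 CPM, sit apart from its other 6 points.

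Of the AP-1 genes, Fos (GRCm38 chr12:85473890-85477274) encodes the partner that gives AP-1 its strongest dimers with JUN proteins. It was read at 12.6, 12.6, 12.9 and 8.13 CPM in placebo replicates 1 to 4 and at 8.20, 16.4, 15.7 and 15.6 CPM in praliciguat replicates 1 to 4. One library of each group was low and the other 3 of each were close together, with 3 praliciguat libraries above all placebo ones. The log2 fold change was 0.27 ± 0.23 (SE), with an edgeR adjusted p of 0.984. Fosb (chr7:19302696-19310118), which also yields the stable truncated form known as delta-FosB, was at 4.90, 4.69, 11.3 and 6.28 CPM in placebo and 3.81, 12.6, 2.65 and 6.67 CPM with praliciguat. Its high libraries, placebo replicate 3 and praliciguat replicate 2, belong to different groups, and its fold change was -0.08 ± 0.49.

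Jun (chr4:95049036-95052222), the founding member of the JUN proteins, varied least. It was at 111, 96.4, 96.3 and 94.9 CPM in placebo and 103, 122, 93.9 and 134 CPM with praliciguat. Its spread within groups (SD 0.18 in log2 CPM) lay at the 35.6th percentile of tested genes, the lowest place of the 9 members, and its fold change was 0.18 ± 0.12. Reads of Jun cannot be told from those of an antisense gene annotated over it, since no source used here states the strand setting of the counting. Junb (chr8:84976909-84978748) encodes a JUN protein that restrains proliferation in many cells and supports muscle mass. Its annotated end touches a neighbouring gene, Prdx2, so without the strand setting some of its reads could belong to that gene. It was at 18.3, 21.8, 24.4 and 54.8 CPM in placebo and 17.5, 17.8, 21.5 and 24.8 CPM with praliciguat. Only placebo replicate 4 was high, and without it the fold change went from -0.55 ± 0.33 to -0.08.

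As shares of the summed FOS and JUN TPM, Jun held the most in 7 of 8 libraries, with a range of 44.7% (placebo replicate 4) to 68.4% (praliciguat replicate 1). Junb held 46.7% in placebo replicate 4, the one library where it exceeded Jun, and 16.9% to 26.0% in the rest. Fosb never held more than 5.57%.

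Egr1 (chr18:34861207-34864956) encodes a factor that binds GC-rich sites and is induced by hypoxia, shear stress and growth factors. It was at 27.4, 28.4, 42.3 and 22.7 CPM in placebo and 22.1, 29.3, 17.5 and 31.0 CPM with praliciguat. The highest placebo and lowest praliciguat libraries set the group means apart, and the other 6 libraries interleaved. The fold change was -0.28 ± 0.23, with an edgeR adjusted p of 0.984. Its relatives stayed low: Egr2 ran from 1.67 to 4.77 CPM and Egr3 from 0.641 to 2.58 CPM over the 8 libraries.

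Atf3 (chr1:191170296-191183333), a stress-responsive repressor and partner of JUN proteins, was at 17.5, 15.2, 26.6 and 16.7 CPM in placebo and 16.0, 23.4, 11.6 and 6.42 CPM with praliciguat. The praliciguat libraries divided by title number: those with upper numbers were the 2 lowest of all 8 libraries, and those with lower numbers lay within the placebo range. The fold change over all libraries was -0.41 ± 0.36, with an edgeR adjusted p of 0.984.

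The NR4A receptors bind as monomers or as dimers, and NR4A1 and NR4A2 also with RXR. Nr4a1 (chr15:101253902-101274795, also called Nur77) was at 398, 475, 544 and 551 CPM in placebo and 473, 667, 326 and 512 CPM with praliciguat. Both the highest and the lowest library were praliciguat, and the fold change was 0.01 ± 0.21. In every library Nr4a1 was between the 96.7th and the 98.2nd percentile of TPM among tested genes. Nr4a2 (chr2:57106830-57124003, Nurr1) was at 5.48, 5.55, 8.95 and 20.2 CPM in placebo and 11.4, 8.55, 3.47 and 7.60 CPM with praliciguat. Placebo replicate 4 was its highest library, the same library in which Junb was highest.

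Nr4a3 (chr4:48045078-48086447, Nor1) varied most. It was at 40.8, 26.1, 203 and 193 CPM in placebo and 66.7, 28.5, 15.9 and 25.7 CPM with praliciguat. The 2 placebo libraries with upper title numbers were high, 2.90 times the highest of the other 6 even at the lower of them, while the 2 placebo libraries with lower numbers overlapped the praliciguat ones. The fold change over all libraries was -1.76 ± 0.72, a 3.39-fold lower mean with praliciguat, with an unadjusted p of 0.0386 and an adjusted p of 0.799 by edgeR and of 0.543 by DESeq2. Without placebo replicates 3 and 4 the fold change was 0.02. Its spread within groups (SD 1.24 in log2 CPM) was at the 98.6th percentile of tested genes.

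The promoters of the NR4A genes are shown because Nr4a3 and Nr4a2 had the widest spread within groups of the 9 members and because all 3 windows share a cluster of one short motif. The windows are the 250 bases before each RefSeq start (GRCm38.p6), printed 5′ to 3′ on the gene's strand. Capitals mark the CRE half-site TGACG, or its reverse complement CGTCA, a sequence that CREB and ATF proteins can bind. Nr4a1 is at chr15:101266596-101266845 on the plus strand, inside the span of the gene's longer transcripts. Nr4a2 is at chr2:57124004-57124253 on the minus strand. For Nr4a3 the 30 bases at chr4:48045089-48045118 on the plus strand are printed, with 2 of its 4 half-sites; this stretch too lies inside the gene's annotated span, which begins at an earlier start. Fos, at chr12:85473640-85473889 on the plus strand, is printed for contrast as a textbook CREB target with 2 half-sites.
Nr4a1: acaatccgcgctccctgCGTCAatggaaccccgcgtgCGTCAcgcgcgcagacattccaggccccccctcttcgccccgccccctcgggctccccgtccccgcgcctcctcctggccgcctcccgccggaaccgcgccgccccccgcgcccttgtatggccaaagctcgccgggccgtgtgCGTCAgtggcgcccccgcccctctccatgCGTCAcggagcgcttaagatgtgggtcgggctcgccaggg
Nr4a2: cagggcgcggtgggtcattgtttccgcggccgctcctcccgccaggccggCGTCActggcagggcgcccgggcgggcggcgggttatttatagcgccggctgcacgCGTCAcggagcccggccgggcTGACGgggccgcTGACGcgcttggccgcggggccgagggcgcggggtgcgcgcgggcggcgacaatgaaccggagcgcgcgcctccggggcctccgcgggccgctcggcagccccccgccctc
Nr4a3: tgtCGTCAcatTGACGtctcgcattccagg
Fos: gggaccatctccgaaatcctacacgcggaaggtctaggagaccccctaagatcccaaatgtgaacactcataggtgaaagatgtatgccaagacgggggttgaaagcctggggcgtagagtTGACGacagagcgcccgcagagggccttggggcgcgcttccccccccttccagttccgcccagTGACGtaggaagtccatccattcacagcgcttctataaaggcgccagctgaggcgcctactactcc

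Of the 9 members, 8 had a promoter entry that was searched, and Egr1 was not among them. On either strand, 7 of these 8 windows held at least 1 TGACG, against 17.8% of 32851 RefSeq promoter windows of the same length. Nr4a1, Nr4a2 and Nr4a3 held 4 each, a number reached or passed by 0.137% of all windows, Fos held 2, Fosb, Junb and Atf3 held 1 each, and Jun held 0. The full CRE TGACGTCA, of which TGACG is part, was in 0 of the 8 windows (1.55% of all), as were the AP-1 site TGANTCA (6.75% of all), the NR4A site AAAGGTCA (1.34% of all) and the CArG box bound by SRF (1.47% of all). The EGR site GCGNGGGCG was in 3 of the 8, Nr4a1, Nr4a2 and Fosb, against 4.70% of all windows. These matches describe letters in a window and are not sites shown to be bound in this muscle. The cluster was one reason for printing the NR4A windows, so its rarity is not a test of these genes. The comparison windows were not matched for base composition, and its part in these shares was not tested. Bases outside the 250 were not searched, so a 0 here does not mean that a gene lacks the motif.

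The make-up of the NR4A family differed between libraries mainly in Nr4a3. Nr4a3 made up 13.6% and 12.7% of the summed NR4A TPM in placebo replicates 3 and 4 and 1.77% to 5.56% in the other 6 libraries. Nr4a1 made up 84.8% to 97.2%, so it was the main NR4A transcript in all 8 libraries. Nr4a2 made up 0.83% to 2.45%.

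**Figure D2:**
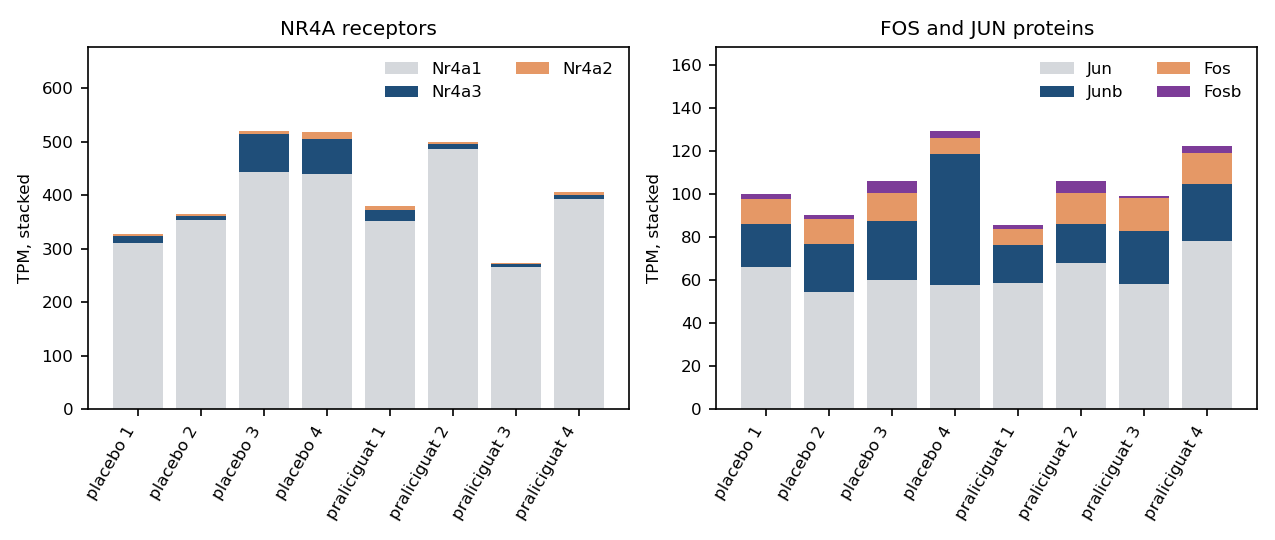
Stacked TPM (vertical axis) of the 3 NR4A genes, left, and of the 4 FOS and JUN genes, right, in each of the 8 libraries. Nr4a1 fills at least 84.8% of every NR4A bar, Nr4a3 is thickest in placebo replicates 3 and 4, and Junb is thickest in placebo replicate 4.

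The same question was then asked by title number, since both groups are present in each range. Between upper and lower title numbers, with the group in the fit, edgeR called 0 of 9 members and 0% of all tested genes after Benjamini-Hochberg adjustment. At an unadjusted p under 0.05 edgeR had 1 member, Junb (0.69 ± 0.25 higher with upper numbers on the log2 scale, edgeR adjusted p = 0.302), and 14.3% of tested genes. Without placebo replicate 4 the Junb value was 0.34. Nr4a3, which differed by 2.60 between upper and lower placebo libraries and by -1.11 between upper and lower praliciguat libraries in mean log2 CPM, had 0.70 ± 0.84 in this contrast.

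Within the lower title numbers, 6 of 9 members had a higher mean log2 CPM with praliciguat than with placebo, beside 48.7% of tested genes. Within the upper numbers 7 of 9 had a lower one, beside 48.4% of tested genes (2 against 2 libraries each). The median difference was 0.25 within the lower and -0.66 within the upper numbers. For 5 members, Fosb, Atf3, Nr4a1, Nr4a2 and Nr4a3, the difference was above 0 in the lower and below 0 in the upper range, a pattern that 28.2% of tested genes had. Nr4a3 differed by 0.42 within the lower numbers and by -3.29 within the upper ones. Its mean in upper placebo libraries, 198 CPM, was 5.93-fold that of lower placebo libraries (33.4 CPM) and 9.54-fold that of upper praliciguat libraries (20.8 CPM). Nr4a2 differed by 0.83 and -1.38, Atf3 by 0.25 and -1.28, and Fosb by 0.53 and -0.99. Nr4a1 differed by 0.37 and -0.42. Fos went the other way, with -0.12 and 0.61, while Jun (0.12 and 0.23), Junb (-0.18 and -0.66) and Egr1 (-0.13 and -0.41) kept 1 sign.

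**Figure D3:**
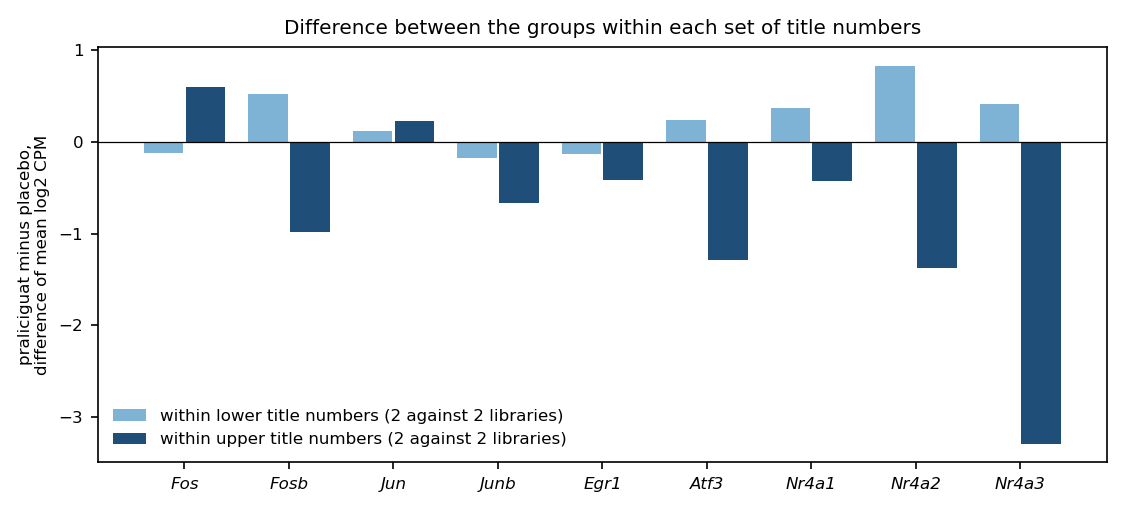
Praliciguat minus placebo, as the difference of mean log2 CPM (vertical axis), within the lower (light) and upper (dark) title numbers for each member, 2 libraries against 2. Bars carry no error because each mean holds 2 libraries; Nr4a3 goes from 0.42 to -3.29.

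The difference between these within-range effects was tested as the interaction of group and title range, in an edgeR model of its own. The count of calls differed by tool. By edgeR, 0 of 9 members passed after Benjamini-Hochberg adjustment, beside 0.0147% of tested genes, and 3 members had an unadjusted p under 0.05, beside 16.3% of tested genes. DESeq2 called 3 members, Nr4a3, Nr4a2 and Atf3, beside 3.49% of the genes it tested, and limma-voom called 0. The Nr4a3 interaction was -3.77 ± 0.64 on the log2 scale (unadjusted p = 0.000981 and adjusted p = 0.165 by edgeR, adjusted p = 0.000141 by DESeq2). It stayed between -4.26 and -3.03 when each library was left out in turn, with edgeR adjusted p between 0.104 and 0.520, and was -3.44 without praliciguat replicate 3. Nr4a2 had -2.26 ± 0.68 (edgeR adjusted p = 0.226, DESeq2 adjusted p = 0.00902) and Atf3 had -1.53 ± 0.49 (edgeR adjusted p = 0.232, DESeq2 adjusted p = 0.0266). The other 6 members had DESeq2 adjusted p of 0.174 or more. In the same contrast 10 of 10 tested macrophage markers (median 1.61) and 10 of 10 fibroblast markers (median 1.48) were above 0 and 8 of 8 red blood cell markers (median -1.25) below 0, with 0, 0 and 1 at an unadjusted p under 0.05 by edgeR. The part of these cells in the members' interaction was not tested.

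**Figure D4:**
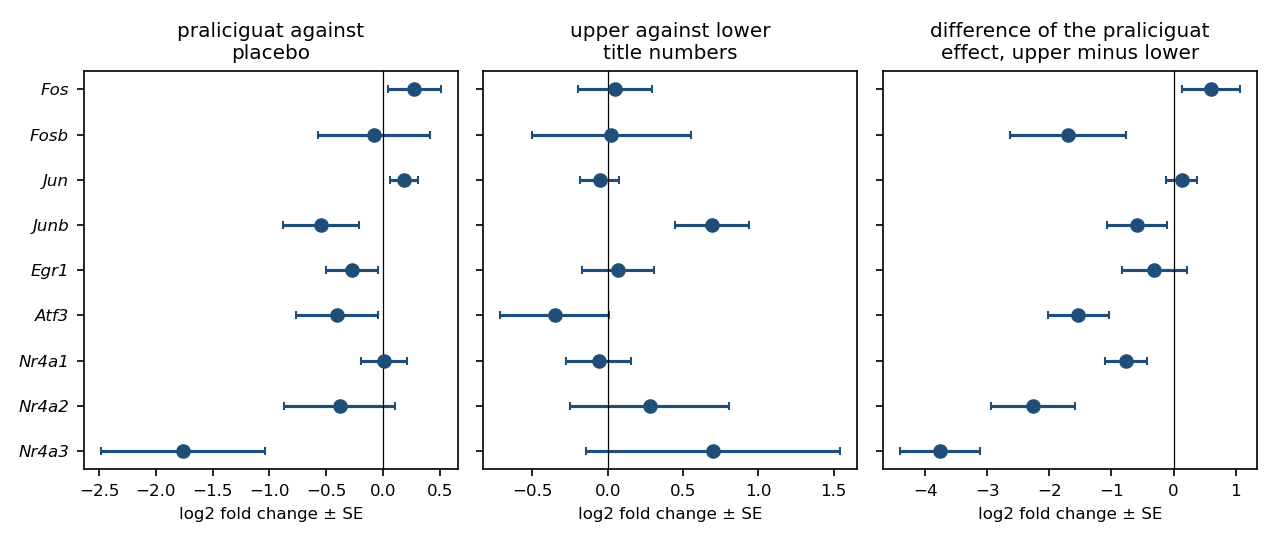
Log2 fold change with its SE (horizontal axis) of each member in edgeR for praliciguat against placebo (left), upper against lower title numbers (middle) and the difference of the praliciguat effect between the ranges (right); the 3 axes differ in scale. Nr4a3 lies farthest from 0 in all 3 panels, at -1.76, 0.70 and -3.77, and no point passed the edgeR test after adjustment.

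Of the 9 members, Nr4a3 alone had both upper placebo libraries above all other 6, which 3.82% of tested genes had. The pattern was not particular to Nr4a3 among related genes. Of the genes named below from the pathway lists, Fosl2, Crem, Spry4 and Maff had it too, and the others did not. In placebo replicates 3 and 4, Fosl2 was at 45.5 and 63.7 CPM and Crem at 16.9 and 19.2 CPM. Their highest values elsewhere were 42.2 and 11.8 CPM. This pattern and the 2-fold cut that follows were not planned and describe the Nr4a3 values, so the small number of genes is not a test of Nr4a3. Over 2-fold above the highest of the rest, Nr4a3 was 1 of 2 genes among the 13569 tested. The other, Irs2, an adaptor of the insulin receptor, was chosen after its values were seen. It was at 7.53, 9.32, 34.7 and 46.8 CPM in placebo and 17.2, 14.2, 5.98 and 8.48 CPM with praliciguat. Its interaction, a contrast that its choice by these libraries favours, was -3.39 ± 0.32 (edgeR adjusted p = 0.0477). With DESeq2 the adjusted p was 2.29e-16, and by edgeR with no count filter it was 0.00433. The adjusted p was 0.0553 with DESeq2 size factors in edgeR, 0.0609 with a filter of 1 CPM, 0.139 with limma-voom and between 0.00615 and 0.261 by edgeR with a library left out. It was past the threshold without placebo replicate 3 or 4 or praliciguat replicate 3 or 4, and not without replicate 1 or 2 of either group. Markers above the other 6 libraries in both upper placebo libraries numbered 2 of 12 for muscle fibre, 3 of 8 for red blood cells and 0 in each of the other 9 marker lists, and the part of these cells in the Nr4a3 values was not tested. The macrophage sums there were 285 and 131 CPM, the fibroblast sums 2931 and 1501 CPM and the adipocyte sums 1480 and 527 CPM.

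The members moved together only loosely over the 8 libraries. Of 36 pairs, 25 had a positive Pearson r, the median r was 0.31, and 0 passed Benjamini-Hochberg adjustment over the 36 (smallest adjusted p = 0.201, exact permutation test, two-sided), with 4 at a raw p under 0.05. The closest pair was Fosb and Nr4a1 (r = 0.874, Spearman's rho = 0.857), and r was 0.621 without the 2 libraries farthest from the median of Fosb. A range of title numbers holds 4 libraries, too few for a correlation within it. As the mean of the 9 z-scored log2 CPM values, placebo replicate 3 was highest (0.68, with 8 of 9 members above their mean) and praliciguat replicate 3 lowest (-0.95, with 1 of 9). The tested genes most like that mean by Pearson r over the 8 libraries were Wipi1 (0.976), Kif1bp (0.973), Akap17b (0.965), Gm5091 (0.963), Mrpl1 (0.955) and Naa35 (0.944). These 6 head a ranking of all tested non-members on the same 8 libraries.

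Other genes of the same response gave 0 calls between the groups by edgeR in any of 5 lists. Of 47 tested other immediate early genes, 22 were above 0 and 25 below, with a median log2 fold change of -0.02 beside 0.02 for all tested genes, and 2 higher and 1 lower at an unadjusted p under 0.05. The lower one was Ctgf, a matricellular growth factor induced by TGF-beta and YAP, with 67.9 ± 16.1 CPM (SD, n = 4) under placebo, 29.2 ± 16.6 CPM (SD, n = 4) under praliciguat and a log2 fold change of -1.22 ± 0.39 (edgeR adjusted p = 0.584). Klf10, a TGF-beta-induced repressor, had 0.73 ± 0.29. Ier2 (-0.07 ± 0.12), Btg2 (0.23 ± 0.26), Jund (-0.13 ± 0.12) and Fosl2 (-0.15 ± 0.23) were within about 1 SE of 0. Of 13 tested AP-1 and ATF partners 7 were above 0 and 6 below (median 0.01), with 3 lower at an unadjusted p under 0.05, among them Ddit3, a factor of the unfolded protein response (-0.44 ± 0.15), and Creb5 (-0.52 ± 0.19).

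Among 37 upstream factors and kinases 24 were above 0 and 13 below (median 0.07). Crem, whose short form ICER represses CRE promoters, had -0.57 ± 0.19 (edgeR adjusted p = 0.601), the CREB coactivator Crtc3 had 0.27 ± 0.10, and Srf had 0.11 ± 0.10. Of 16 feedback inhibitors 7 were above 0 and 9 below (median -0.07). Dusp1, a phosphatase that switches off MAP kinases, is itself an immediate early gene. It was at 118 to 151 CPM in placebo and 155 to 222 CPM with praliciguat (0.46 ± 0.13, edgeR adjusted p = 0.473). These ranges did not overlap, as was so for 3.86% of tested genes. Ctgf, Ddit3, Crtc3 and Spry4, named here for their low p, had no overlap either. Spry4 had -0.42 ± 0.14 and Zfp36, which destabilises AU-rich mRNAs, -0.05 ± 0.14. Of 11 RXR partners and muscle glucose genes linked to NR4A1, 10 were above 0 and 1 below (median 0.10), with 0 at an unadjusted p under 0.05; Rxra had 0.34 ± 0.16 and Pygm, muscle glycogen phosphorylase, 0.27 ± 0.15.

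In the interaction edgeR called 0 genes of the 5 lists, and the counts that follow are at an unadjusted p under 0.05, which 16.3% of all tested genes had. Of the 47 other immediate early genes 2 were higher and 11 lower, with a median of 0.05 beside 0.03 for all tested genes. Ctgf, among the 2, had 1.58 ± 0.37. Among the 11 were Btg2 (-1.29 ± 0.28), Fosl2 (-0.71 ± 0.29) and Egr3 (-1.59 ± 0.51), the last at no more than 2.58 CPM in any library. Of the 13 AP-1 and ATF partners 0 were higher and 5 lower (median -0.27, 9 below 0), and of the 37 upstream factors and kinases 1 was higher and 7 lower (median -0.19, 28 below 0). Of the 16 feedback inhibitors 0 were higher or lower (median 0.03), and of the 11 NR4A partners and glucose genes 0 were higher and 2 lower (median -0.25, 9 below 0).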

How the data were processed

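Muscle RNA, isolated with Tri Reagent, went into stranded mRNA libraries, per the labels' protocols. RSEM 1.2.28, STAR 2.5.3a, Trimmomatic, FastQC and the build mm10 appear in the submitters' processing notes. The authors deposited 1 table per library, whose expected count column holds RSEM's estimated counts per gene, per the file headers; 0.765% to 0.93% of values were not whole (tolerance 0.001). The deposited TPM column, per the file headers, is scaled for length and depth and served for levels between genes, family shares and 2 alternatives. The deposited gene lengths were read per the file headers and enter no test.

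Rounded expected counts were tested by edgeR 4.0.16 under R 4.3.3 (filterByExpr, TMM, robust quasi-likelihood F test, Benjamini-Hochberg over 13569 genes, threshold 0.05). The SE is the log2 fold change divided by the root of F. Log2 CPM used a prior count of 2. The 3 models were group, group plus title range, and their interaction. Groups came from the labels, and replicate numbers follow accession order and pair nothing. No 2 libraries of a group agreed within sampling noise (chi-square per degree of freedom 21.9 to 136). Alternatives were DESeq2 1.42.0, its size factors in edgeR, limma-voom (limma 3.58.1), other count filters, limma on log2(TPM + 1) and log2(TPM + 0.1), a title range block, a threshold of 0.1 and each library left out. Leaving out placebo replicates 3 and 4 together, and each library in the interaction, were added after seeing the data. The tests were checked on simulated counts.

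The members, 5 pathway lists and 11 marker lists were chosen with earlier results of these data known. Named genes were the members, the called members of each list or else its 2 of lowest p for praliciguat, Dusp1, Ier2, Btg2, Zfp36, Jund, Fosl2, Egr2, Egr3 and Srf, and the 6 genes most like the members' mean. Gene coordinates and promoters are RefSeq's on GRCm38.p6, the assembly of mm10.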

Additional observations from a re-analysis of the deposited data

Results flagged for a closer look

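In each of the 18 sets of 4 libraries (9 genes in 2 groups), the highest and lowest library was checked for a gap to its neighbour that is large against the set's range. Chance flags about 1 in 20 such sets when values are normally distributed. Of the 18, 4 were flagged. The sets of one group share the same 4 libraries and are not independent, so these rates are not compared as a test. Fos was low in placebo replicate 4 (8.13 CPM, the other 3 between 12.6 and 12.9) and in praliciguat replicate 1 (8.20 CPM, the others between 15.6 and 16.4). Jun was high in placebo replicate 1 (111.3 CPM, the others between 94.9 and 96.4). Junb was high in placebo replicate 4 (54.8 CPM, the others between 18.3 and 24.4). Placebo replicate 4 thus held the lowest placebo value of Fos and the highest of Junb. The paired high libraries of Nr4a3 cannot be flagged this way, since each has the other as its near neighbour.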

How the results depend on the processing

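Of 387 recomputed log2 fold changes of single members, 345 kept their direction and side of the threshold, 38 changed sign without being called and 4 passed only in the alternative (Nr4a3, Nr4a2 and Atf3 in the DESeq2 interaction, and Junb without placebo replicate 3). For praliciguat against placebo, edgeR called 0 genes, against 11 at an adjusted p under 0.1, 126 with DESeq2, 2 with limma-voom, 3 with the title range as a replicate block and 0 to 5 with a library left out (5 without placebo replicate 3). Members called were 0 under each of these. Between title ranges edgeR called 0 genes, against 341 with DESeq2 and 0 to 446 with a library left out (446 without placebo replicate 4). For the interaction edgeR called 2 genes, against 5 at 0.1, 25 with no count filter, 0 with DESeq2 size factors, with the filter of 1 CPM or with limma-voom, and 415 with DESeq2. With a library left out it called 0 to 403, with 403 without placebo replicate 3, 8 without praliciguat replicate 3 and 0 without placebo or praliciguat replicate 1 or 2. The members called were 3 with DESeq2 and 0 to 1 with a library left out, the 1 being Junb without placebo replicate 3 (-1.06, edgeR adjusted p = 0.0441); there the lone upper placebo library is assumed to vary like the other groups. The cause of these moves was not tested.

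Signs changed as follows between the groups. Nr4a1 was -0.0183 with limma-voom, -0.00015 with the replicate block and -0.07 with both TPM pseudocounts (-0.0653 and -0.0655), and ran from -0.17 to 0.17 with a library left out. Fosb ran from -0.64 to 0.28 and Nr4a2 from -0.63 to 0.22 with a library left out. Without placebo replicates 3 and 4 Fosb was 0.42, Junb 0.0182, Nr4a2 0.48 and Nr4a3 0.022. Between title ranges, with a library left out, Fos ran from -0.18 to 0.21, Fosb from -0.33 to 0.64, Jun from -0.18 to 0.0171, Egr1 from -0.18 to 0.23, Nr4a1 from -0.20 to 0.13, Nr4a2 from -0.22 to 0.72 and Nr4a3 from -0.0633 to 1.44. In the interaction Jun ran from -0.15 to 0.38, Junb from -1.06 to 0.12 and Egr1 from -0.78 to 0.21. Within groups, libraries differed by more than counting error (chi-square per degree of freedom 21.9 or more), so their number limits the precision more than depth does.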

Other observations

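The genes in this paragraph were chosen after their values were seen. Of the other immediate early genes, Nfil3, a leucine zipper repressor tied to the circadian clock, had an interaction of -1.50 ± 0.23 (edgeR adjusted p = 0.124), Maff, a small MAF protein, had -1.86 ± 0.36 (edgeR adjusted p = 0.163) and Csrnp1 had -1.13 ± 0.24 (edgeR adjusted p = 0.165). Maff was at 13.5, 14.0, 18.01 and 32.9 CPM in placebo and 16.3, 16.2, 7.78 and 8.80 CPM with praliciguat. As for Nr4a3, its 2 highest libraries were the upper placebo ones, but replicate 3 (18.01 CPM) was only slightly above praliciguat replicate 1 (16.3 CPM). The 2 lowest libraries of Maff were the praliciguat ones with upper title numbers. Nfil3 and Csrnp1 did not share the high upper placebo libraries of Nr4a3. Mean CPM in upper placebo libraries was 1.23 times that in lower ones for Nfil3 and 0.999 times for Csrnp1, and the 2 highest libraries of each were praliciguat replicates 1 and 2 (137 and 122 CPM for Nfil3, 22.4 and 19.6 CPM for Csrnp1). Among the tested genes whose log2 CPM followed Nr4a3 most closely over the 8 libraries were Lipo3 (r = 0.961), Irs2 (0.937), Rap1a (0.937), Strn (0.933) and Impact (0.933), ranked on the same 8 libraries.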
